A study of Mus musculus with 12 samples.

Results

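Members of the TGF-beta pathway, 10 genes in all, were followed in mouse blood neutrophils: the ligand gene Tgfb1, the receptor genes Tgfbr1 and Tgfbr2, the Smad genes Smad2, Smad3, Smad4 and Smad7, and the corepressor genes Ski, Skil and Tgif1. They were taken by name from the deposited table, where all 10 were found among 11494 genes, and all 10 passed the filter on low values that left 9742 genes for testing. The neutrophils came from mice with a control bone marrow transplant (6 libraries, genotype Control) and from mice whose transplant carried the genotype LOY, which stands for loss of the Y chromosome (6 libraries). The labels give the treatment of both groups as Control, and they give no strain, age, sex or day of collection. For each library 10000 Ly6G+, CD115- and RFP+ cells were sorted from blood, so only cells with the RFP label were read, and the labels do not say how the loss was made or whether each library is a separate mouse. P-values therefore measure the spread between these libraries, which may in part be technical.

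TGF-beta reaches cells as a latent protein and, once released, binds a complex in which TGFBR2, a kinase that is always active, switches on TGFBR1. TGFBR1 then phosphorylates SMAD2 and SMAD3, which join SMAD4 and act on genes in the nucleus, while SMAD7, itself induced by the pathway, blocks the receptor. SKI, SKIL (also called SnoN) and TGIF1 bind Smad complexes and recruit histone deacetylases, which keeps target genes off. In neutrophils TGF-beta is known to act as a chemoattractant and as a factor that shapes their inflammatory state.

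None of the 10 genes passed the test between groups, and in none of them were the 6 LOY libraries clear of the 6 control libraries. In these bulk samples, fewer cells with a transcript and less of it per cell cannot be told apart. The mean of Tgif1 was 1.88 times as high in LOY and that of Smad2 1.53 times, and their limma log2 fold changes of 1.02 and 0.65 were the 2 largest in size of the 10. Both had an unadjusted p under 0.05, and the other 8 genes had intervals that included no change. Over all genes, 0.0205% of those tested passed (limma, adjusted p under 0.05), 6.04% had an unadjusted p under 0.05 (4.4% with the higher level in LOY), and 0.287% had groups that did not overlap. Of the 10 genes 2 had an unadjusted p under 0.05, both with the higher mean in LOY, and 0 had groups that did not overlap. With edgeR 2 of the 10 had an unadjusted p under 0.05, where 2.94% of all genes did (1.44% higher in LOY), and 0 of the 10 passed, where 0.0% did. The authors' deposited table has 0.493% of its genes at an adjusted p under 0.05 and none of the 10. The same test did not pass 2 Y-linked genes whose groups did not overlap, Eif2s3y (log2 fold change −7.26, limma adjusted p = 0.214) and Ddx3y (−6.65, adjusted p = 0.189), so an adjusted p above 0.05 does not show that a level is the same in both groups. Per exon length, Tgfbr2 was the most abundant of the 10 and the inhibitory Smad7 the least.

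Upstream sequence is shown for Tgif1, the gene with the largest difference, and for Tgfbr2, the gene with the highest level. RefSeq promoter windows (GRCm38.p6) were matched for 6 of the 10 genes, Tgfb1, Tgfbr1, Tgfbr2, Smad3, Ski and Tgif1. The 250 bases before an annotated start are printed 5′ to 3′ on the gene's strand, and capitals mark CAGACA or its reverse complement TGTCTG, letters that hold AGAC or GTCT, the short box that Smad proteins bind. AGAC or GTCT outside these longer words is left in lower case. It occurs in every printed stretch, that of Tgfbr2 included, so lower case does not mean that the short box is absent.
Tgif1, chr17:70853533-70853782, minus strand: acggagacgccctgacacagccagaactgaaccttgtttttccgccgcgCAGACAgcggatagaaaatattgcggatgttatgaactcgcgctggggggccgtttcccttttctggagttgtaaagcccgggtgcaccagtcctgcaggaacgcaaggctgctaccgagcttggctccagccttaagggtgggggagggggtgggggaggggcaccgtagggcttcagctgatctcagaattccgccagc
Tgif1, chr17:70851735-70851984, minus strand: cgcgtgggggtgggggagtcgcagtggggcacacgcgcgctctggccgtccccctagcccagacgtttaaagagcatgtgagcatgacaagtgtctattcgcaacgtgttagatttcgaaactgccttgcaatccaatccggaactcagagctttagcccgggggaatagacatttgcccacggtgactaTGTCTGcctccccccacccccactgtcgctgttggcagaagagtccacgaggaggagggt
Tgfbr2, chr9:116175364-116175613, minus strand: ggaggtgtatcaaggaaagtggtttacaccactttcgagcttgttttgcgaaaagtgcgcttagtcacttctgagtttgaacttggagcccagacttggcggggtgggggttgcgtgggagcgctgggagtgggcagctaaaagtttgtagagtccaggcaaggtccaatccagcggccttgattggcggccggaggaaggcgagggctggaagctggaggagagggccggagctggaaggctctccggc

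CAGACA on either strand was found in 3 of the 11 windows of these genes, in both Tgif1 stretches printed here and in 1 window of Tgfbr1, against 21.0% of all 32851 windows of 300 bases (250 before a start and the first 50 after it). Tgif1 had further windows that are not printed, and those held no CAGACA on either strand. The Tgif1 stretches printed are thus the ones with a match. The palindrome GTCTAGAC was in 0 of the 11 windows and in 0.213% of all windows. Both motifs hold AGAC, so they overlap in those letters. These matches are descriptions of the letters, and the table does not show which start site was used.

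The libraries were first checked against their labels. The summed Y-linked genes Ddx3y, Eif2s3y, Uty and Kdm5d lay between 155 and 254 per 1000000 normalized reads in the control libraries and between 0.162 and 86.3 in the LOY libraries. The library of LOY 4 held the 86.3, and the next LOY library, LOY 5, had 6.73. All 10 neutrophil markers were present, with mean S100a8 levels of 765826 (control) and 612705 (LOY) normalized reads. Markers of other blood cells were low but present: summed B cell markers lay between 106 and 468 per 1000000 over all libraries, platelet markers between 30.2 and 89.8, T cell markers between 5.72 and 24.2, and basophil markers between 0 and 20.4. Erythroid markers lay between 4283 and 11137 per 1000000 in 11 libraries and at 38021 in LOY 15. Of 8 monocyte markers 3 were in the table (502 to 1016 per 1000000), and Csf1r, which encodes CD115, made up most of that sum. Csf1r stood at 9279 ± 2572 (control) and 12442 ± 2295 (LOY) normalized reads (SD, n = 6 each; log2 fold change 0.45, limma unadjusted p = 0.0358, adjusted p = 0.81), and the platelet gene Pf4 at 414 ± 161 and 220 ± 93.1 (−0.91, limma unadjusted p = 0.0373, adjusted p = 0.81). The marker next in abundance in each list went the other way. Ly6c2 stood at 2402 ± 1152 and 1499 ± 368 (−0.57, limma adjusted p = 0.81), and Ppbp at 166 ± 87.8 and 265 ± 161 (0.52, limma adjusted p = 0.957). Summed platelet markers had medians of 50.8 (control) and 51.8 (LOY) per 1000000, and summed monocyte markers 719 and 887. The part of these markers in the differences of Smad2 and Tgif1 was not tested. In Control 1, 2 and 12, 17.3% to 21.7% of listed genes read 0, and in the other 9 libraries 6.59% to 11.6%. Recovered reads per library ranged from 13743581 to 19616066.

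**Figure D1:**
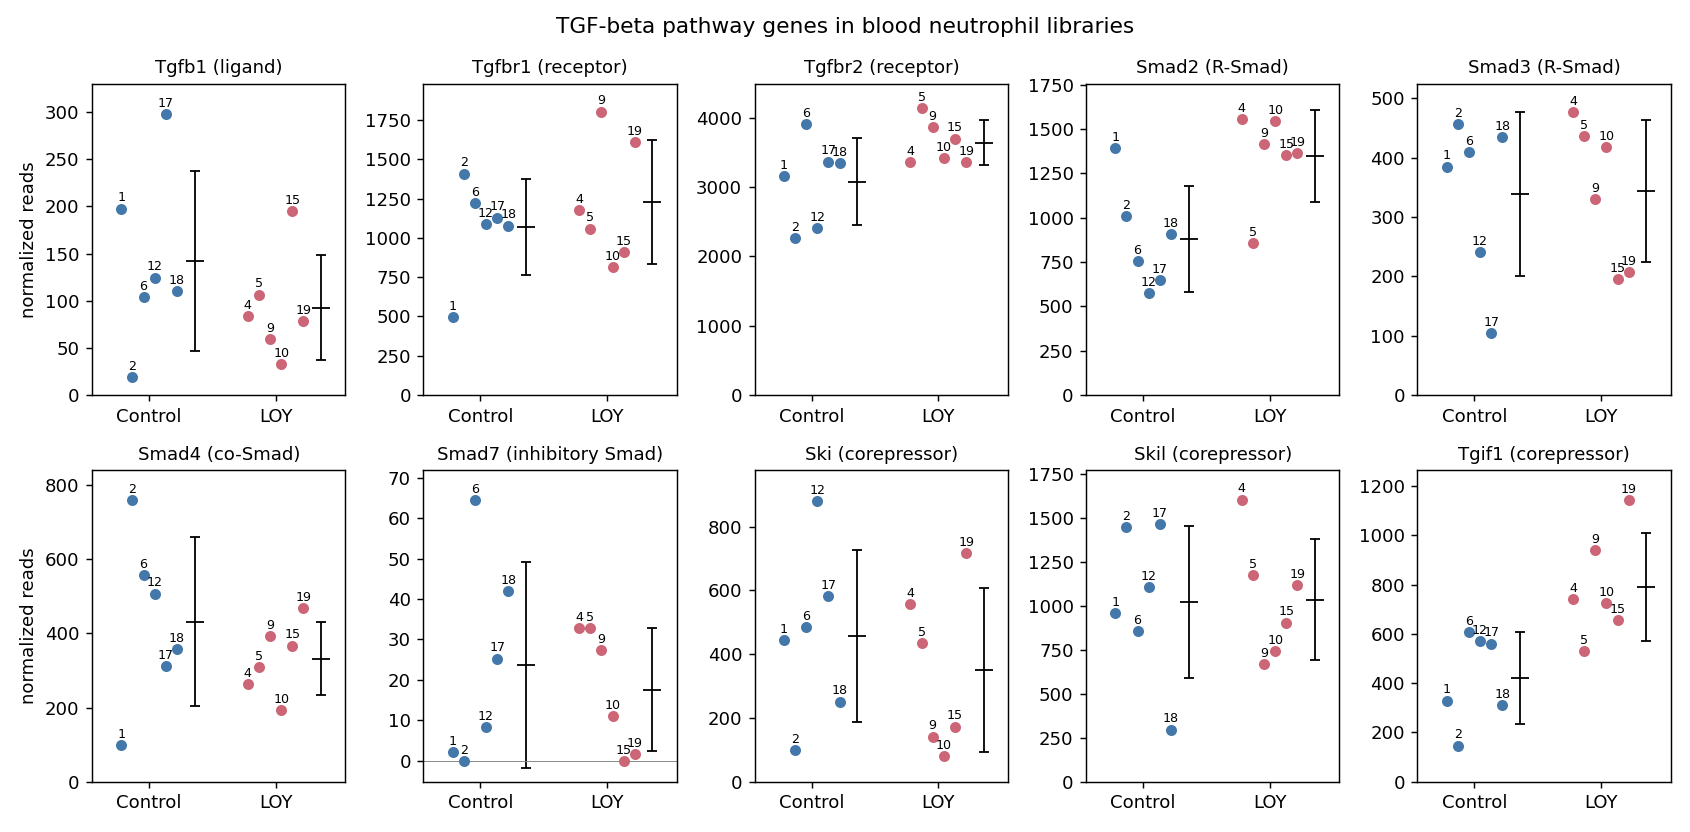
Normalized reads (linear axes; the Smad7 axis runs slightly below 0 for its error bar) of the 10 genes in each library. Points are libraries, numbered as in the labels, and the black marks are the mean and SD of 6 libraries. The ranges of the groups overlap in every panel, and for Tgif1 the libraries of Control 6, 12 and 17 stand between 561 and 607, beside LOY 5 at 529.

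The ligand gene Tgfb1 (chromosome 7, 25687002 to 25705077, plus strand, GRCm38) encodes the main TGF-beta of blood cells. Its control libraries read 198, 19.2, 104, 125, 298 and 110 normalized reads (Control 1, 2, 6, 12, 17 and 18), and its LOY libraries 83.9, 107, 59.2, 32.4, 195 and 78.7 (LOY 4, 5, 9, 10, 15 and 19). Both groups spread widely: the highest value was 15.5 times the lowest among controls and 6.01 times among LOY libraries. The means were 142 ± 95.1 and 92.6 ± 55.9 (SD, n = 6 each), and 1 of 6 LOY libraries lay above the control median. The log2 fold change was −0.44 ± 0.68 (SE; 95% interval −1.91 to 1.03; limma adjusted p = 0.906), an interval from 0.267 to 2.05 times the control level. Platelets are rich in TGF-beta, and summed platelet markers spanned 30.2 to 89.8 per 1000000 in control and 33.7 to 73.0 in LOY libraries. The highest platelet sum and the highest Tgfb1 value were both in Control 17, and the lowest of both were in Control 2. The part of platelet RNA in the Tgfb1 values was not tested.

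Tgfbr2 (chromosome 9, 116084293 to 116175360, minus strand), the receptor that binds the ligand first, had 3160, 2260, 3913, 2410, 3368 and 3346 normalized reads in Control 1, 2, 6, 12, 17 and 18. In LOY 4, 5, 9, 10, 15 and 19 it had 3356, 4145, 3867, 3413, 3700 and 3362. All 6 LOY libraries lay above the control median of 3253, and 4 of 6 control libraries lay below the lowest LOY library. Its coefficient of variation, 20.4% in control and 8.85% in LOY libraries, was the lowest of the 10 genes in both groups. The log2 fold change was 0.26 ± 0.14 (SE; 95% interval −0.03 to 0.56; limma adjusted p = 0.81), so that the interval reached up to 1.48 times the control level. Control 2 and 12, at the low end, were among the 3 libraries with the most genes at 0, and without Control 1, 2 and 12 the estimate was 0.04 (limma adjusted p = 0.987).

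Tgfbr1 (chromosome 4, 47353222 to 47414931, plus strand), the signalling receptor, had 495 normalized reads in Control 1 and between 1079 and 1410 in the other 5 control libraries. In LOY libraries it ranged from 816 in LOY 10 to 1806 in LOY 9, with a median of 1117 against 1108 in control. The low value of Control 1 set much of the estimate, which was 0.21 ± 0.27 (SE; 95% interval −0.38 to 0.80; limma adjusted p = 0.884) with all libraries and −0.00054 without Control 1. Within a library Tgfbr2 exceeded Tgfbr1 per kb of exon in 12 of 12 libraries. That ratio was 5.10 in Control 1 and at most 2.55 in the rest of the control group, and it ran from 1.67 to 3.34 in LOY libraries.

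Smad2 and Smad3 encode the Smads that the receptor phosphorylates. Smad2 (chromosome 18, 76241580 to 76310963, plus strand) had 1391, 1011, 753, 573, 648 and 906 normalized reads in Control 1, 2, 6, 12, 17 and 18. In LOY 4, 5, 9, 10, 15 and 19 it had 1557, 855, 1414, 1546, 1352 and 1362. All 6 LOY libraries were above the control median of 830, and 5 of 6 lay between 1352 and 1557, while LOY 5, at 855, sat among the controls. Of the control libraries only Control 1 reached the LOY range above 1352. The means were 880 ± 298 and 1348 ± 257 (SD, n = 6 each), with a log2 fold change of 0.65 ± 0.23 (SE; 95% interval 0.16 to 1.15; limma unadjusted p = 0.014, adjusted p = 0.762). In the authors' deposited table Smad2 had a log2 fold change of 0.61 and an adjusted p of 0.559. The unadjusted p stayed under 0.05 in all 22 alternatives run, with estimates from 0.54 to 0.92, and the adjusted p lay between 0.56 and 1.00 in them. Without Control 1, 2 and 12 the estimate was 0.80 (limma adjusted p = 0.937).

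Smad3 (chromosome 9, 63646767 to 63757994, minus strand) had nearly equal means. It ranged from 104 to 457 normalized reads in control (median 397) and from 196 to 476 in LOY libraries (median 374). Its means were 339 ± 138 and 344 ± 120 (SD, n = 6 each), and its log2 fold change was 0.09 ± 0.41 (SE; 95% interval −0.79 to 0.98; limma adjusted p = 0.969). The 95% intervals of Smad2 and Smad3 overlap, and the difference between their changes was not tested. Per kb of exon, Smad2 exceeded Smad3 in 12 of 12 libraries, by 1.16 to 3.93 times in control (median 1.45) and by 1.24 to 4.36 times in LOY libraries (median 2.52). The ranges of this ratio overlapped widely, with Control 17 at 3.93.

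Smad4 (chromosome 18, 73639009 to 73703780, minus strand) encodes the partner shared by all signalling Smads. It ranged from 98.9 in Control 1 to 760 in Control 2, a 7.68-fold span that enclosed every LOY library, from 193 in LOY 10 to 468 in LOY 19. The log2 fold change was −0.19 ± 0.45 (SE; 95% interval −1.16 to 0.78; limma adjusted p = 0.938). It was −0.57 without Control 1, the lowest library, 0.018 without Control 2, the highest, and −0.31 without Control 1, 2 and 12. In the authors' deposited table it was −0.38.

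Smad7 (chromosome 18, 75367529 to 75395935, plus strand), the inhibitory Smad that TGF-beta signalling induces in many cells, was barely read. Its control libraries had 2.15, 0, 64.4, 8.24, 25.3 and 42.0 normalized reads (Control 1, 2, 6, 12, 17 and 18) and its LOY libraries 32.8, 32.8, 27.3, 11.1, 0 and 1.73 (LOY 4, 5, 9, 10, 15 and 19). Recovered reads were between 0 and 64 in a library, so 1 library in each group was at 0 and no other of the 10 genes had a library at 0. The log2 fold change was −0.17 ± 1.26 (SE; 95% interval −2.90 to 2.57; limma adjusted p = 0.981), an interval from 0.134 to 5.93 times the control level. Its estimate ranged from −2.79 (limma unadjusted p = 0.0287, adjusted p = 1.00), with the percentage of zero-value genes per library added to the model, to 0.50 without LOY 15.

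The corepressor genes Ski and Skil are close relatives and showed means within the spread of the libraries. Ski (chromosome 4, 155154075 to 155222592, minus strand) ranged from 98.6 to 881 normalized reads in control libraries and from 80.5 to 717 in LOY libraries. LOY 9, 10 and 15 were low, at 141, 80.5 and 172, and LOY 4, 5 and 19 were high, at 556, 434 and 717. Its log2 fold change was −0.50 ± 0.64 (SE; 95% interval −1.89 to 0.89; limma adjusted p = 0.883). Skil (chromosome 3, 31095058 to 31122577, plus strand) ranged from 296 in Control 18 to 1463 in Control 17, and from 670 to 1604 in LOY libraries. Its means of 1021 ± 434 and 1035 ± 342 (SD, n = 6 each) were almost the same, with a log2 fold change of 0.12 ± 0.37 (SE; 95% interval −0.68 to 0.92; limma adjusted p = 0.954). The ratio of Skil to Ski per kb of exon was 8.42 in Control 2 and no higher than 1.44 in the remaining controls, and LOY libraries spanned 0.892 to 5.29.

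Tgif1 (chromosome 17, 70844205 to 70853546, minus strand), a homeodomain corepressor, had the largest difference of the 10. Its control libraries read 329, 146, 607, 571, 561 and 312 normalized reads (Control 1, 2, 6, 12, 17 and 18) and its LOY libraries 743, 529, 941, 724, 655 and 1143 (LOY 4, 5, 9, 10, 15 and 19). In 5 of 6 LOY libraries it was above the highest control library, and LOY 5 was below 3 of the controls. The means were 421 ± 186 and 789 ± 219 (SD, n = 6 each), and the log2 fold change was 1.02 ± 0.35 (SE; 95% interval 0.26 to 1.77; limma unadjusted p = 0.0127, adjusted p = 0.762). In the authors' deposited table it was 0.91 with an adjusted p of 0.494. The estimate was 0.74 without Control 2, the lowest library, 0.69 without Control 1, 2 and 12, and 0.60 with the percentage of zero-value genes in the model. The unadjusted p was under 0.05 in 21 of 22 alternatives, the exception being that last model (limma unadjusted p = 0.18). The percentage of zero-value genes ran from 9.33 to 21.7 in control and from 6.59 to 11.6 in LOY libraries. That model therefore cannot fully separate it from the group. Relative to Ski, Tgif1 per kb of exon stood at 0.64 to 1.46 in control and 1.21 to 8.89 in LOY libraries, highest in LOY 9 and 10, where Ski was low.

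**Figure D2:**
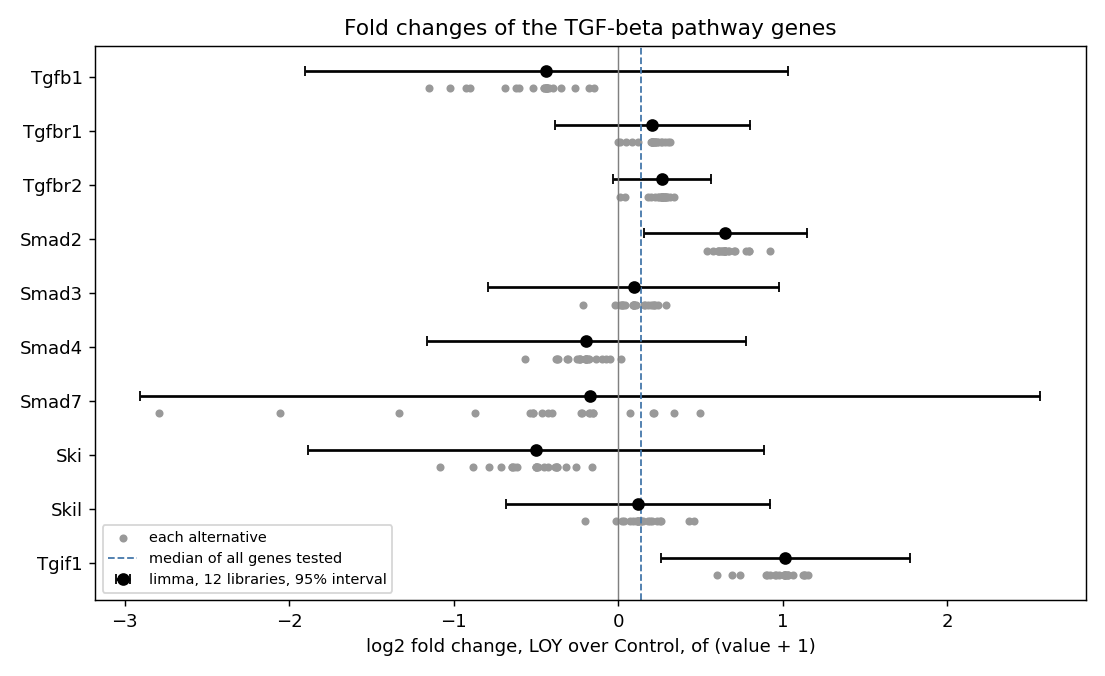
Log2 fold change of each gene, LOY over Control, on the log2(value + 1) scale. Black points and bars are the limma estimate and its 95% interval over 12 libraries, grey points the estimates under each alternative, and the dashed line the median of all genes tested (0.14). The intervals of Smad2 and Tgif1 lie above 0, and that of Smad7 is the widest.

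Of the 10 estimates 6 were above 0 and 4 below, with a median of 0.11 for the 10 genes beside 0.14 for all genes tested. That all-gene median was −0.01 with edgeR and 0.00062 with quantile normalization, and the signs of the 10 genes were 6 above and 4 below with both. For 4 genes, Tgfbr1, Tgfbr2, Smad3 and Skil, the 95% interval lay within a 2-fold change in either direction. Extremes were shared unevenly among libraries: Control 2 held the lowest value of 4 genes (Tgfb1, Tgfbr2, Smad7 and Tgif1) and the highest of Smad4, and LOY 4 held the highest of 3 (Smad2, Smad3 and Skil). LOY 4 also kept Y-linked reads. Without that library the estimates were 0.60 for Smad2 (limma unadjusted p = 0.0315) and 1.02 for Tgif1 (limma unadjusted p = 0.0213), both at a limma adjusted p of 0.881. The part of the Y-linked reads in these differences was not tested.

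**Figure D3:**
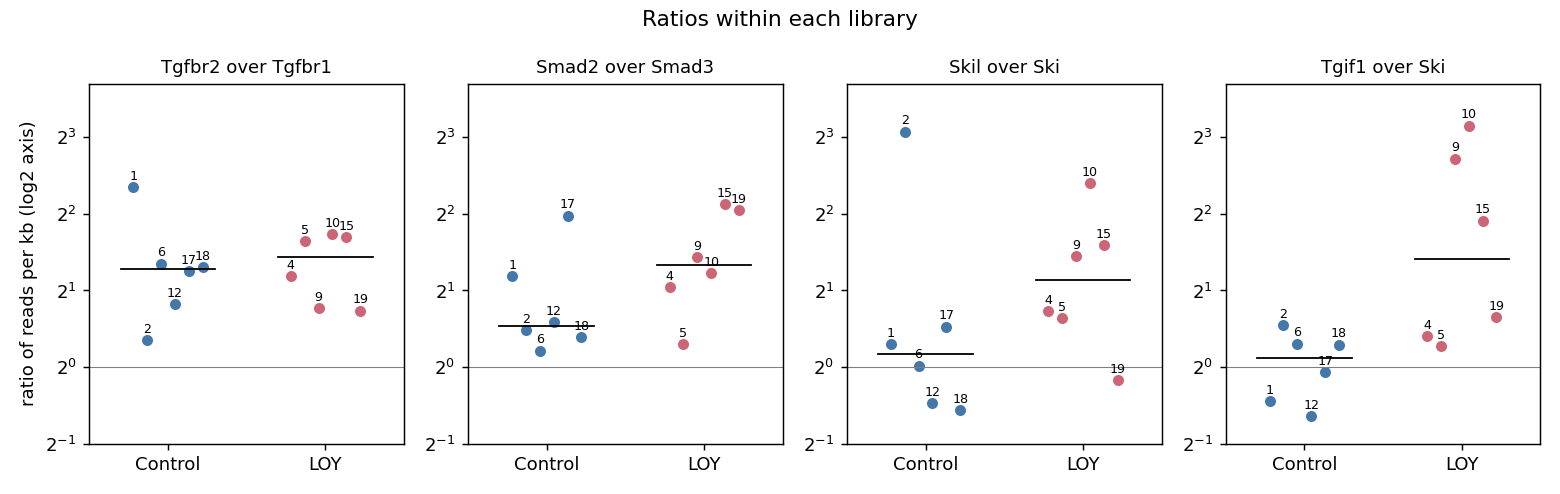
Ratios of reads per kb of exon within each library, on a log2 axis. Points are numbered libraries and the line is the median of 6. Tgfbr2 over Tgfbr1 and Smad2 over Smad3 are above 1 in all 12 libraries, and Tgif1 over Ski reaches 8.89 in LOY 10.

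Levels of different genes were compared per kb of exon, taken as the union of the annotated exons. Over the 12 libraries of both groups Tgfbr2 led with 410 ± 68.4 normalized reads per kb (SD), and 13.8% of listed genes with a length were higher. Tgfbr1 followed at 176 ± 53.2, Smad2 at 127 ± 41.1, Tgif1 at 108 ± 48.5, Skil at 106 ± 38.4, Smad4 at 103 ± 47.2, Ski at 72.6 ± 46.4 and Smad3 at 61.6 ± 22.3. Tgfb1 stood at 23.3 ± 15.6 and Smad7 at 4.57 ± 4.49, below 91.8% of listed genes. The order in the middle differed by group: in control Smad4 (116), Skil (105), Smad2 (100), Ski (82.2) and Tgif1 (74.8), and in LOY Smad2 (153), Tgif1 (140), Skil (107), Smad4 (89.5) and Ski (63.0). The order over the 12 libraries was taken from the same values that were then tested. Of its 9 neighbouring pairs 3 had a within-library difference beyond its spread between libraries (permutation test by sign flips over 12 libraries, two-sided, adjusted over 9 pairs): Tgfbr2 over Tgfbr1 (2.41 times, higher in 12 of 12, adjusted p = 0.0022), Smad3 over Tgfb1 (3.05 times, 10 of 12, adjusted p = 0.0176) and Tgfb1 over Smad7 (12 of 12, adjusted p = 0.0022). The last pair differed 9.43 times, or 17.6 times with the longest transcript as length, values that depend on the 0.1 read per kb added, since Smad7 was at 0 in 2 libraries. The 6 pairs from Tgfbr1 down to Smad3 had no such difference (permutation adjusted p from 0.11 to 0.995). With the longest transcript as length Tgif1 and Skil moved above Smad2, and Smad3 over Tgfb1 no longer passed (1.70 times, permutation adjusted p = 0.278).

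**Figure D4:**
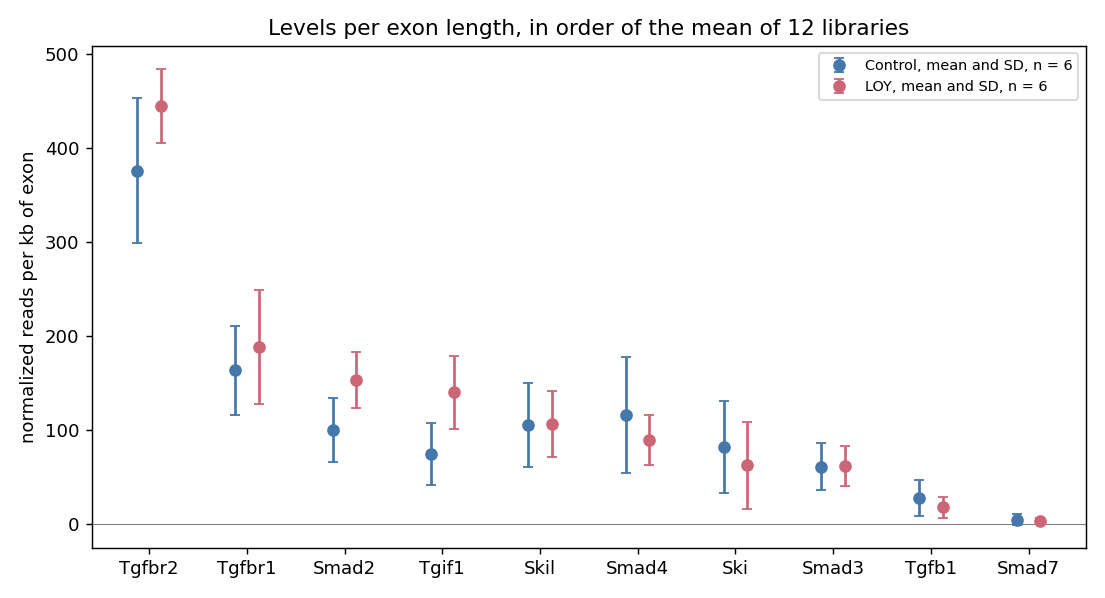
Normalized reads per kb of exon, as mean and SD of 6 libraries a group, ordered by the mean of all 12. Tgfbr2 stands apart at 376 in control and 445 in LOY libraries, and Smad7 lies near 0.

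The rest of the pathway was read from lists of 146 genes, of which 96 were in the table and 88 were tested. Of these 88 genes 0 passed over all genes (limma and edgeR). With limma 3 had an unadjusted p under 0.05 (all higher in LOY), where 6.04% of all genes did (4.4% higher in LOY). Estimates above 0 numbered 57, beside 5935 of all 9742. With edgeR 1 of the 88 had an unadjusted p under 0.05, where 2.94% of all genes did. DESeq2 called 1, Ltbp1, which encodes a protein that stores latent TGF-beta: it had 74.3 normalized reads in LOY 4, 135 in LOY 19 and 0 in the other 10 libraries, and it was under the limma filter. DESeq2 called 0.484% of all genes.

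Among genes that store and release TGF-beta, 6 of 14 were in the table and 0 of 4 tested passed (limma, median 0.19). In the pairs of means that follow, control comes first, each with its SD over 6 libraries, and the value after them is the log2 fold change with its SE. Nrros, which anchors latent TGF-beta on myeloid cells, was abundant (7306 ± 1618 and 7655 ± 926 normalized reads, 0.09 ± 0.16 SE). Furin, which cleaves the precursor, had an estimate of 0.29 ± 0.34, and Itgav, an integrin subunit that activates latent TGF-beta, one of 1.84 ± 0.98. Itgav read 1.08 in Control 1 and up to 169 in Control 6. Of 17 further ligand genes Inhba alone was in the table, and it was under the filter. Of 4 further Smads Smad5 alone was in the table, also under the filter.

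Of 13 further receptors of the family 6 were tested and 0 passed (limma, median 0.74). Their means over 12 libraries lay between 35.2 and 174 normalized reads, and the median was −0.46 with edgeR. Bambi, a pseudoreceptor that damps signalling, stood at 33.2 ± 36.2 and 69.7 ± 40.6 normalized reads (2.69 ± 1.30), with 0 or about 1 read in Control 1, 2 and 6. Acvr1b stood at 89.6 ± 120 and 115 ± 71.8, and the activin receptor gene Acvr2a at 89.6 ± 129 and 42.3 ± 44.1, where the estimate of 0.97 and the means differ in direction.

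Genes for turnover and anchoring of receptors and Smads gave 0 of 21 past the test, with a median of 0.16 and 13 estimates above 0 (limma; with edgeR −0.03 and 10). Smurf2, a ubiquitin ligase that marks Smads and receptors for breakdown, stood at 632, 2098, 531, 271, 898 and 513 normalized reads in the controls in the order used above, against 305 to 492 in the LOY group (−0.85 ± 0.40 SE, limma adjusted p = 0.81). Control 2 was the highest of all libraries and Control 12 the lowest. Usp15, a deubiquitinase that acts on the receptor complex, stood at 920 ± 359 and 1407 ± 378 (0.76 ± 0.39, adjusted p = 0.81), with Control 2 the lowest at 213. Tgfbrap1, a receptor-associated protein gene, was low, at 38.4 ± 47.2 and 68.0 ± 61.6.

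Of coactivators and DNA-binding partners 0 of 13 passed, with a median of −0.12 and 6 estimates above 0 (limma). Sp1 stood at 985 ± 454 and 690 ± 129 normalized reads (−0.43 ± 0.26 SE), Runx1 at 667 ± 495 and 373 ± 269 (−0.89 ± 0.64), both highest in Control 2, and Zeb2 at 738 ± 391 and 949 ± 284 (0.59 ± 0.45). Of the corepressor complex that Ski, Skil and Tgif1 recruit 0 of 17 passed, with a median of 0.16 and 12 estimates above 0. Ncor1, the scaffold of the histone deacetylase complex, stood at 3197 ± 1174 and 2244 ± 619 (−0.48 ± 0.24, limma adjusted p = 0.81). Rbbp7, a histone-binding subunit, stood at 141 ± 146 and 262 ± 119 (2.42 ± 1.26), with 2.15 and 1.28 reads in Control 1 and 2.

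The arm that signals through kinases and not through Smads gave 0 of 16 past the test, a median of 0.92 and 12 estimates above 0 (limma). All 3 pathway genes with an unadjusted p under 0.05 were in it: Map3k7, which encodes the kinase TAK1 (33.7 ± 47.9 and 76.3 ± 39.0 normalized reads, 2.94 ± 1.20 SE), its partner gene Tab1 (148 ± 223 and 251 ± 133, 3.42 ± 1.52) and the kinase gene Rock2 (156 ± 164 and 322 ± 49.6, 2.57 ± 1.08). Rock2 read 15.1, 2.56 and 15.6 in Control 1, 2 and 12, while Control 6, 17 and 18 (252 to 375) lay beside the LOY libraries (250 to 399). Tab1 read 1.28, 1.83 and 0 in Control 2, 12 and 17, and its highest library was Control 18, at 565. Map3k7 read 0, 1.28 and 0.936 in Control 1, 2 and 17, and 109 in Control 18. The median of the arm was 2.03 for its 9 genes with a mean under 500 and −0.08 for its 7 genes with a mean of 500 or more. Over all 16 genes it was 0.41 with quantile normalization (12 of 16 above 0, 1 at an unadjusted p under 0.05), 0.01 with edgeR (0 at an unadjusted p under 0.05), 0.01 without Control 1, 2 and 12 and −0.08 with the percentage of zero-value genes in the model. The part of low levels in these medians was not tested, and no split at 500 is given for all genes.

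Genes that TGF-beta is known to induce or repress in other cells gave 0 of 11 past the test, with a median of 0.05 and 6 estimates above 0 (limma). Junb, an AP-1 transcription factor gene, was the most abundant at 41593 ± 4652 and 46693 ± 8588 normalized reads (0.15 ± 0.12 SE). Id1, an inhibitor of DNA-binding factors, stood at 517 ± 202 and 656 ± 78.0 (0.44 ± 0.28), where Control 1 and 18 were the lowest at 308 and 249, and Tsc22d1 stood at 337 ± 194 and 499 ± 182 (1.37 ± 1.07), where Control 2 read 2.56. Tgfbi, a secreted matrix protein gene named for TGF-beta and chosen after its values were seen, stood at a mean of 22729 over 12 libraries with an estimate of −0.08 ± 0.12.

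**Figure D5:**
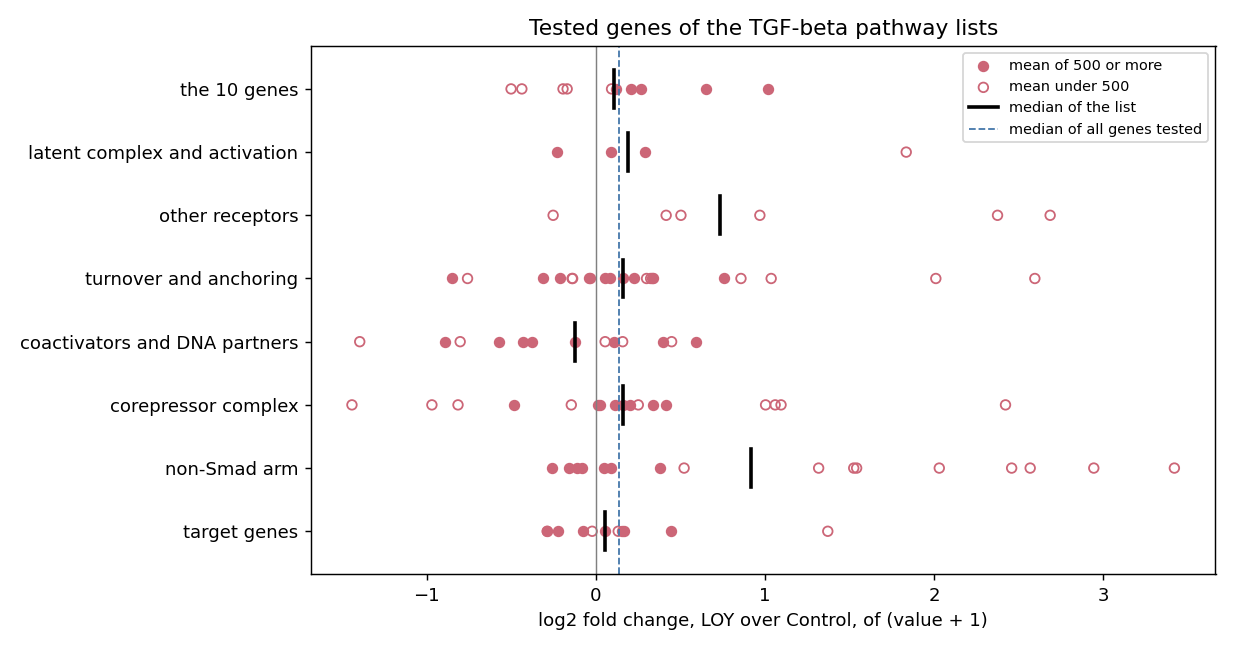
Log2 fold changes of the tested genes in each list, LOY over Control, on the log2(value + 1) scale. Filled points have a mean of 500 normalized reads or more, open points less, black bars are list medians and the dashed line is the median of all genes tested (0.14). Wide estimates are open points, and the filled points of the arm without Smads lie near 0.

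The profiles most like those of the 2 genes with the smallest p were listed by the root mean square difference of centred log2 values over 12 libraries, among 6788 tested genes with a mean of 100 or more. For Tgif1 these were Edem2 (0.31), Srp9 (0.36), Rapgef6 (0.37), Ikbkb (0.37) and Lnpk (0.41), against a median of 1.02 for all candidates. For Smad2 they were Mir22hg (0.29), Lysmd1 (0.32), Jmjd1c (0.33), Uqcrc1 (0.33) and 9030624J02Rik (0.33), against a median of 0.81. None of these 10 genes passed (limma adjusted p from 0.762 to 0.855), and a gene with the same value in every library would have 0.76 for Tgif1 and 0.49 for Smad2.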

How the data were processed

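Blood neutrophil RNA was read in 12 libraries made with SMART-Seq v4 and Nextera XT, per the labels' protocols. The submitters' processing notes list STAR 2.5.2b, Trimmomatic 0.36, bcl2fastq 2.17, Subread 1.5.2, featureCounts and GRCm38. The authors deposited a normalized signal per gene and library, whose unit the file headers do not name. Every value was a whole multiple of 1 step per library (tolerance 0.02, 100% of values above 0), so it is a read count divided by a size factor. The step of Control 6 lies close to 1. The deposited table also holds log2 fold changes and p-values of the authors, per the file headers. The labels do not state which tool made them. For the 10 genes the log2 fold changes and unadjusted p-values equal those of DESeq2 on the recovered reads. The authors' values given above are therefore not separate from that alternative. The lowest mean listed was 8.63, and 16 names turned into dates were restored by identifier. The kit does not mark strand; no gene of the 10 shares exonic bases with another gene in GENCODE vM21, which gave coordinates and lengths for 11472 identifiers.

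The main test was limma 3.58.1 (trend, robust; R 4.3.3) on log2(value + 1), for genes with 10 or more in at least 6 libraries, adjusted over all of them by Benjamini-Hochberg at 0.05. On this scale the added 1 damps ratios between low values, while libraries near 0 can push an estimate well past the ratio of means. Alternatives were edgeR 4.0.16 and DESeq2 1.42.0 on the recovered reads, TMM or quantile normalization, other filters and pseudocounts (0.5 and 5), the percentage of zero-value genes per library as a covariate, each library left out, and Control 1, 2 and 12 left out together. The percentage used as a covariate was computed from the same values and was partly tied to group. Within-library differences used scipy 1.17.1 after adding 0.1 read per kb. The fits were also run on simulated counts, and the outcome is not reported here. Those counts did not model the higher share of genes at 0 in Control 1, 2 and 12.

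The 10 genes, the lists and the alternatives were chosen with earlier results of these data known. The text names the 10 genes, up to 3 tested genes per list by p (1 of these is not reported here), the most abundant markers, and 5 profiles most like each of the 2 genes with the smallest p. No batch is labelled and the groups share no replicate number.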

Additional observations from a re-analysis of the deposited data

Results flagged for a closer look

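The 4 values below stood far from the rest of their group of 6 by Dixon's criterion (the gap to the nearest library set against the range), among 30 groups examined. For normally distributed values chance flags about 1 group in 20. The ratios were made from values of the same genes, so the groups are not independent. Tgfbr1 was lowest in Control 1, at 495 normalized reads, where the next control library had 1079. In the same library the ratio of Tgfbr2 to Tgfbr1 was highest, at 5.10 against 2.55 in the next. Smad2 was lowest in LOY 5 among LOY libraries, at 855, where the next had 1352. The ratio of Skil to Ski was highest in Control 2, at 8.42, where the next control library had 1.44.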

How the results depend on the processing

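Of the 10 genes 0 passed in the main test and in each of the 22 alternatives, and 0 of the 88 other pathway genes passed in the main test. DESeq2, run on 96 pathway genes without that filter, called 1, Ltbp1, which is not among the 88; 0 passed in the other alternatives. Over all genes, 2 passed in the main test, 0 with edgeR, with quantile normalization, with a mean of 50 or more, with the percentage of zero-value genes in the model or without Control 1, 2 and 12 together, and 54 with DESeq2; with 1 library left out the count ranged from 0 to 15 (leaving out Control 6 gave 15, Control 18 gave 9, Control 17 gave 6, Control 12 gave 5, LOY 4 gave 2, Control 1 gave 1, and Control 2 or any other LOY library 0). The 2 genes that passed in the main test were higher in LOY, while the 2 that passed without LOY 4 were lower in LOY. Genes with an unadjusted p under 0.05 numbered 588 in the main test, 286 with edgeR, 626 with quantile normalization, 414 with a mean of 50 or more, 285 with the covariate and 448 without Control 1, 2 and 12. Of the 10 genes 2 had such a p in the main test and with edgeR. Tgif1, Smad2, Tgfbr2, Tgfb1 and Ski had the same sign in all alternatives, Tgfb1 between −1.15 and −0.15 and Ski between −1.08 and −0.16. With 1 library left out the sign turned for Tgfbr1 (−0.00054 to 0.31), Smad3 (−0.21 to 0.24), Smad4 (−0.57 to 0.018), Smad7 (−0.87 to 0.50) and Skil (−0.20 to 0.26), and these 5 had no call to lose. The causes were not tested. Smad7 has no value under the filter on a mean of 50. No paired analysis was possible because the groups share no replicate numbers. The lowest depth was that of Smad7, with at most 64 recovered reads in a library, and Tgfb1 had at most 318; counting error was not separated from the spread between libraries.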
